A study of Rattus norvegicus with 18 samples.

Results

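Rno-miR-26a, rno-miR-335, rno-miR-340-5p and rno-miR-708 are 4 rat miRNAs known from introns of protein-coding genes. They were taken by name, and are 4 of the 693 mature sequences whose reads were counted. Small RNA of Sprague Dawley rats was sequenced at 8 developmental stages. Forebrain was labelled at embryonic days 10 and 13 (E10, E13), and cortex, mainly somatosensory cortex, at E17 and at postnatal days 0, 3, 7, 14 and 28 (P0 to P28). For the 2 earliest stages the study's methods describe whole cortex, so age and dissected tissue cannot be told apart there. All rats were untreated as far as the labels say, and the number of animals behind a tissue sample is not given in the sources used here. There were 9 tissue samples, 2 of P0 and 1 of every other stage. Each was sequenced in 2 runs, called technical replicates in the labels, which gave 18 libraries. Tests over tissue samples therefore measure the spread around a trend, and only P0 has a biological repeat.

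An intronic miRNA is cut by Drosha and Dicer from a hairpin within an intron, so that host mRNA and miRNA can come from 1 primary transcript. A mature miRNA guides Argonaute to mRNAs that pair with its seed, bases 2 to 8. In the RefSeq genes of rat (GRCr8), miR-26a lay within the bounds of Ctdspl, a small C-terminal domain phosphatase of a family that restrains neuronal genes. MiR-340 lay within Rnf130, a RING finger ubiquitin ligase, and miR-708 within Tenm4, a teneurin of neuronal membranes. Gene bounds do not tell intron from exon, so the intronic position itself was not checked. MiR-335 is known from an intron of the imprinted gene Mest, and no position of it was checked here. Host mRNAs were not measured in these small RNA libraries. In tissue RNA, fewer cells of a type and less miRNA per cell cannot be told apart.

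The mature sequences set which tags were counted for each miRNA, and they are given here 5′ to 3′ with the seed in capitals. Those of miR-26a (chr8:127633063-127633084), miR-340-5p (chr10:34894668-34894689) and miR-708 (chr1:160011168-160011190), all on the plus strand of GRCr8, are from RefSeq, and that of miR-335 is its most frequent deposited tag.
rno-miR-26a: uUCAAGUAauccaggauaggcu
rno-miR-335: uCAAGAGCaauaacgaaaaaug
rno-miR-340-5p: uUAUAAAGcaaugagacugauu
rno-miR-708: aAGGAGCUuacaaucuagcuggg

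No 2 of the 4 share a seed. Each of 2 members shares its seed with another counted rat miRNA, shown because reads of such pairs must be kept apart by the bases after the seed.
rno-miR-26b-5p: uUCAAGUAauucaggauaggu
rno-miR-28-5p: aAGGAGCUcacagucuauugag

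Counted from 1 at the 5′ end, miR-26b-5p differed from miR-26a by C11U and C21U. MiR-28-5p differed from miR-708 first at position 9, by U9C. Tags of at least 18 nt cover these first differing positions, so no tag identical to one was counted for the other.

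The libraries held 4899010 to 16590379 clean reads, of which 63.2% to 86.4% matched a mature rat miRNA. MiR-9a-5p, abundant in neural progenitors, stood between 11222 and 66585 reads per 1000000 clean reads (TPM) in the 9 tissue samples, and liver miR-122-5p between 16.2 and 92.3 TPM. By rules on run differences and on read length, 7 libraries were set apart from the other run of the same tissue. A difference between runs does not show which of the 2 deviates, so setting run 1 of 6 samples apart was a choice. In run 1 of E13, E17, P0 replicate 1, P7, P14 and P28, the difference from run 2 over 292 other miRNAs was alike, with pairwise r of 0.76 to 0.96. These 6 were chosen as the largest set with every pairwise r above 0.7, so their likeness follows from the choice. P0 replicate 2 and P3 shared a run difference too (r = 0.91), which was unlike that of the 6 (r of 0.25 to 0.40), and both of their runs were kept. Run 2 of E10 was set apart for its read lengths and not for its miRNA levels. In it, 1.07% of the reads of other miRNAs were 20 nt or shorter, against 18.4% to 45.8% in the other 17 libraries. For the 4 miRNAs, levels and slopes are given with and without these 7 libraries below. Without them E13, E17, P0 replicate 1, P7, P14 and P28 are run 2 alone, E10 is run 1 alone, and P0 replicate 2 and P3 are means of both runs, so an order between these sets also compares unlike runs.

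Of the 4, miR-26a was on average the most abundant and miR-335 the least, in the mean of the runs and in each run alone, on the TPM scale, which compares ligated reads and not molar amounts. Over the 9 tissue samples the means were 2130 TPM for miR-26a (rank 36 of 535 miRNAs detected), 1126 for miR-340-5p (rank 47), 888 for miR-708 (rank 57) and 649 for miR-335 (rank 69). The order of the middle pair depended on the libraries, since miR-708 (1342 TPM) lay above miR-340-5p (1054 TPM) in run 1 and far below it in run 2 (434 against 1198 TPM). Leaving out E10 lowered the mean of miR-340-5p to 687 TPM, below miR-708 at 840. With the 7 libraries left out the means were 2213, 1638, 510 and 476 TPM for miR-26a, miR-340-5p, miR-708 and miR-335. Levels used tags seen in both runs of a tissue sample and are means of the runs. They were not scaled by the TMM factors (library size factors) of the whole-course slopes below. Those factors were 2.18 at E10, 1.87 at E13, 0.74 at E17, and 1.11 and 0.48 at P0. They were 0.61 at P3, 0.94 at P7, and 1.04 at P14 and P28. A larger factor lowers a scaled level, so orders and folds in TPM need not hold on that scale. Reads per library were 6547 to 77523 for miR-26a, 1488 to 24631 for miR-335, 311 to 71861 for miR-340-5p and 1677 to 30123 for miR-708, so that counting error was small beside the gap between runs.

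MiR-26a, known in brain from differentiating neurons, held a broad level with no steady course. It stood at 2540 TPM at E10, 1995 at E13, 2056 at E17, 4711 and 1171 in the 2 tissue samples of P0, 1160 at P3, 1393 at P7, 1580 at P14 and 2561 at P28. On the TPM scale the 2 samples of P0 were the highest and the second lowest of all 9, 4.02-fold apart (2941 ± 2503 TPM, SD, n = 2). That gap exceeded the 2.54-fold range between the highest and lowest stage in TPM. With TMM factors of 1.11 and 0.48 for the 2 samples, the gap would be smaller on the scale of the slopes, and the order could change. In the order of levels, none of the 7 gaps between neighbouring stages was larger than the spread, which was the gap between the runs of either stage or, for P0, between its samples. Without the 7 libraries the values were 2184 TPM at E10, 1877 at E13, 2146 at E17, 5204 and 1171 at P0, 1160 at P3, 1303 at P7, 1824 at P14 and 3047 at P28, in the same order of stages.

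On the TPM scale miR-335 was higher in the 2 earliest stages than afterwards. Its level was 1782 TPM at E10, 1808 at E13, 492 at E17, 316 and 240 at P0, 278 at P3, 285 at P7, 279 at P14 and 359 at P28. The samples of E10 and E13 lay above all later ones in each run taken alone. In the order of levels, the step from E10 to E17 (1.86 on the log2 scale) was larger than the gap between the runs of either stage, and the other 6 steps were not. With TMM factors of 2.18 at E10 and 0.74 at E17, that step would be smaller on the scale of the slopes. Without the 7 libraries the values were 2067 TPM at E10, 821 at E13, 261 at E17, 99.7 and 240 at P0, 278 at P3, 144 at P7, 150 at P14 and 223 at P28. E17 then lay below P3, but within each run alone E17 lay above P3 (724 against 379 TPM in run 1 and 261 against 176 in run 2). E10 lay above E13 by 1.82-fold in run 2 and below it in run 1. E10 and E13 are also the samples labelled forebrain.

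On the TPM scale miR-340-5p was highest at E10. Its level was 4638 TPM at E10, 820 at E13, 811 at E17, 783 and 983 at P0, 1079 at P3, 374 at P7, 323 at P14 and 323 at P28. E10 lay above every other tissue sample in both runs, by 5.38-fold over the next stage in run 1 (P3) and 1.87-fold in run 2 (E17). TMM factors were 2.18 at E10, 0.48 in P0 replicate 2 and 0.61 at P3. On the scale of the slopes the lead of E10 over these 2 samples would therefore be smaller. The samples of P7, P14 and P28 were the lowest 3 in the mean of the runs and in run 2 alone, between 583 and 658 TPM in the latter. Without the 7 libraries the values were 6497 TPM at E10, 1446 at E13, 1487 at E17, 1417 and 983 at P0, 951 to 1208 in the 2 libraries of P3, and 583 to 658 from P7 on.

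MiR-708 was lower from P3 on than in the earlier samples in the mean of the runs. It stood at 1272 TPM at E10, 1090 at E13, 2124 at E17, 1691 and 506 at P0, 327 at P3, 422 at P7, 284 at P14 and 276 at P28. In the mean of the runs, on the TPM scale, the 4 highest samples were the 3 embryonic ones and replicate 1 of P0. With TMM factors of 2.18 at E10, 1.87 at E13 and 0.48 in P0 replicate 2, this order need not hold on the scale of the slopes. The 2 samples of P0 were 3.34-fold apart in TPM, and no step between neighbouring stages was larger than the spread. In run 2 alone the stages from P7 on lay between 105 and 120 TPM, and E10 and E17 at 1104 and 953 TPM. Without the 7 libraries the values were 1440 TPM at E10, 459 at E13, 953 at E17, 568 and 506 at P0, 327 at P3, 113 at P7, 105 at P14 and 120 at P28. E13 then lay below both samples of P0, but within run 2 alone it lay above P0 replicate 2 (459 against 291 TPM). In run 1 alone P0 replicate 2 (720 TPM) lay just below P7 (730 TPM), so the earlier and later samples overlapped there.

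**Figure D1:**
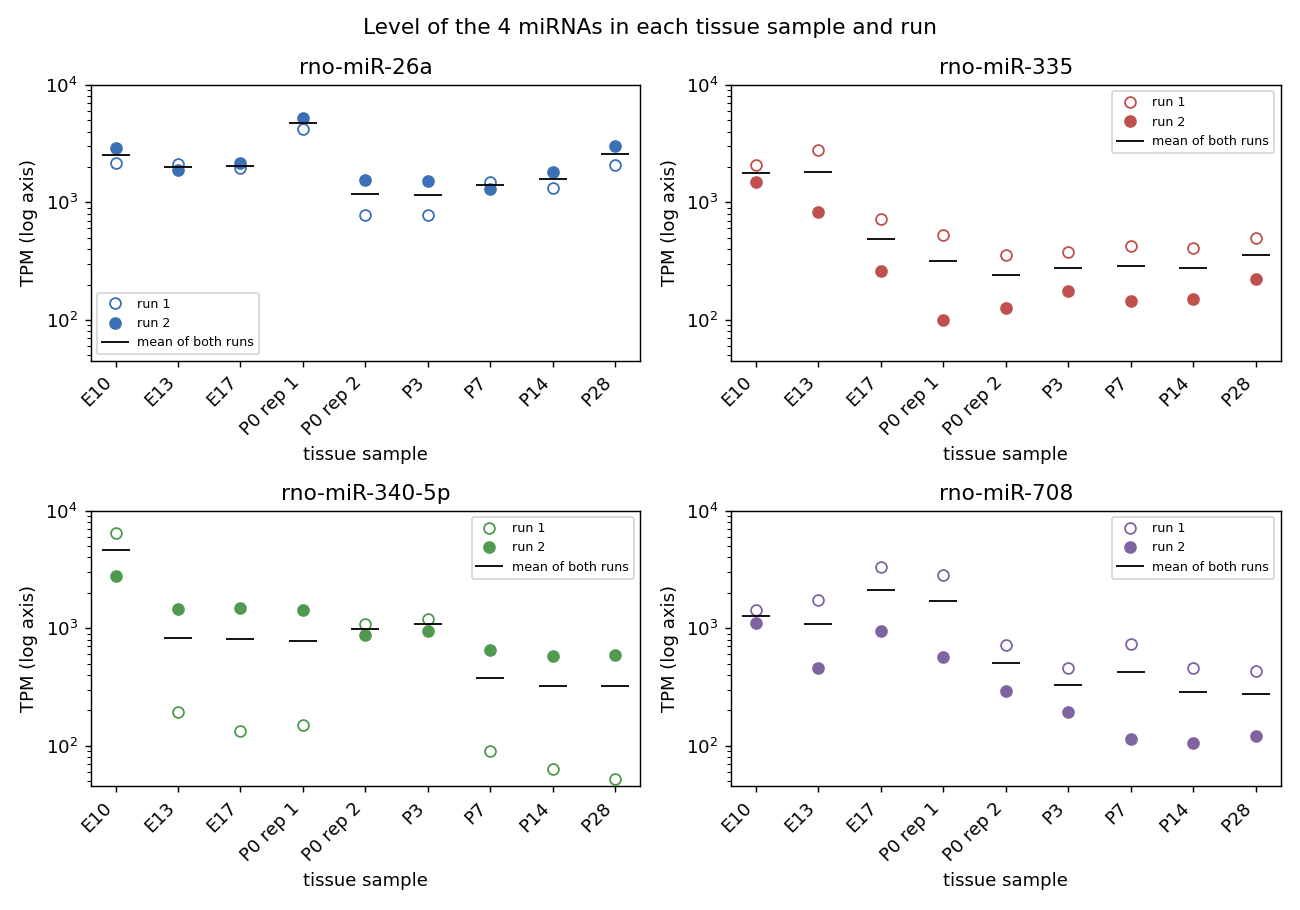
Level of each miRNA (TPM, log axis) in the 9 tissue samples, with run 1 as open circles, run 2 as filled circles and their mean as a bar. MiR-335 and miR-708 stood higher in run 1 of every sample, and miR-340-5p stood at 52.1 to 194 TPM in run 1 of 6 samples while E10 kept its highest level in both runs.

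Trends were tested as the slope of the log2 count on the order of the stages (1 for E10, 8 for P28), on counts summed over the runs. MiR-335 and miR-708 fell over the whole course and miR-340-5p and miR-708 fell within cortex, from E17 on, while miR-26a passed in neither. From E10 to P28, 216 of 478 miRNAs passed the threshold (45.2%), of which 85 rose (17.8%) and 131 fell (27.4%). From E17 to P28, 198 of 454 passed (43.6%), of which 105 rose (23.1%) and 93 fell (20.5%). With 2 of 4 members called in each range, their share was near that of all miRNAs. The median slope of all miRNAs was -0.09 and -0.03 in the 2 ranges. Without TMM scaling it moved to -0.22 in the whole course and up to 0.08 within cortex, and the split of calls in the whole course became 38 rising and 192 falling.

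In the fit on summed runs miR-708 had the steepest slope of the 4 in both ranges. MiR-340-5p was steeper in run 1 alone, at -0.75 against -0.37 over the whole course and -1.07 against -0.68 within cortex, and with the replicate block over the whole course, at -0.47 against -0.42. Differences between their slopes were not tested. Within cortex its slope was -0.70 per stage (SE 0.13, edgeR adjusted p = 0.00142), which is 0.61-fold per stage, and 8.81% of all miRNAs fell more steeply. The slope passed in all 19 alternatives, between -0.92 and -0.61, and was -0.81 without the 7 libraries. Over the whole course it was -0.45 (SE 0.17, edgeR adjusted p = 0.0449), and the call was lost on leaving out any 1 of 6 tissue samples: E17 (edgeR adjusted p = 0.10), P0 replicate 2 (0.0534), P3 (0.0621), P7 (0.0965), P14 (0.151) or P28 (0.212). It was also lost in run 1 alone (0.145) and with the paper's sequences as the only miRNAs (0.0640). It passed in the other 14 of 22 alternatives, with the steepest slope, -0.72, from identical tags (edgeR adjusted p = 0.00132) and -0.52 without the 7 libraries (0.0105). Of the 16708 reads of the identical tag, 12913 were from run 2 of E10, the library with few short reads, so that steepest slope leans on 1 library.

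MiR-340-5p fell within cortex by 0.44 per stage (SE 0.13, edgeR adjusted p = 0.0183). The call was lost without P0 replicate 2 (edgeR adjusted p = 0.0515), P14 (0.0650) or P28 (0.0748). It was lost too with clean reads as library size (-0.32, edgeR adjusted p = 0.0514), in run 1 alone (-1.07, 0.148) and with the paper's sequences as the only miRNAs (-0.38, 0.0547). The slope was -0.46 without the libraries that stand apart. Over the whole course its slope was -0.31 (SE 0.13, edgeR adjusted p = 0.0610), which did not pass. With the run as a replicate block over the 18 libraries it was -0.47 and passed (edgeR adjusted p = 0.0209), as it did without the 7 libraries (-0.35, adjusted p = 0.00487), where E10 is run 1 alone. It did not pass in run 2 alone (-0.25, edgeR adjusted p = 0.128) or with identical tags (-0.22, 0.170), and 9 of 22 alternatives passed in all.

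MiR-335 fell over the whole course by 0.29 per stage (SE 0.09, edgeR adjusted p = 0.0187), and the call was lost without E13 (0.0728) or P14 (0.0654) and in run 1 alone (0.0719). The slope without the 7 libraries was -0.36 (edgeR adjusted p = 0.00844). Within cortex its slope was -0.17 (SE 0.11, edgeR adjusted p = 0.240), and -0.21 without the 7 libraries. For miR-26a the slopes were 0.02 (SE 0.13, edgeR adjusted p = 0.888) and -0.14 (SE 0.13, 0.389), or 0.04 and -0.20 without the 7 libraries, and the sign in the whole course turned under several alternatives. The slopes of miR-335 in the 2 ranges were not tested against each other.

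**Figure D2:**
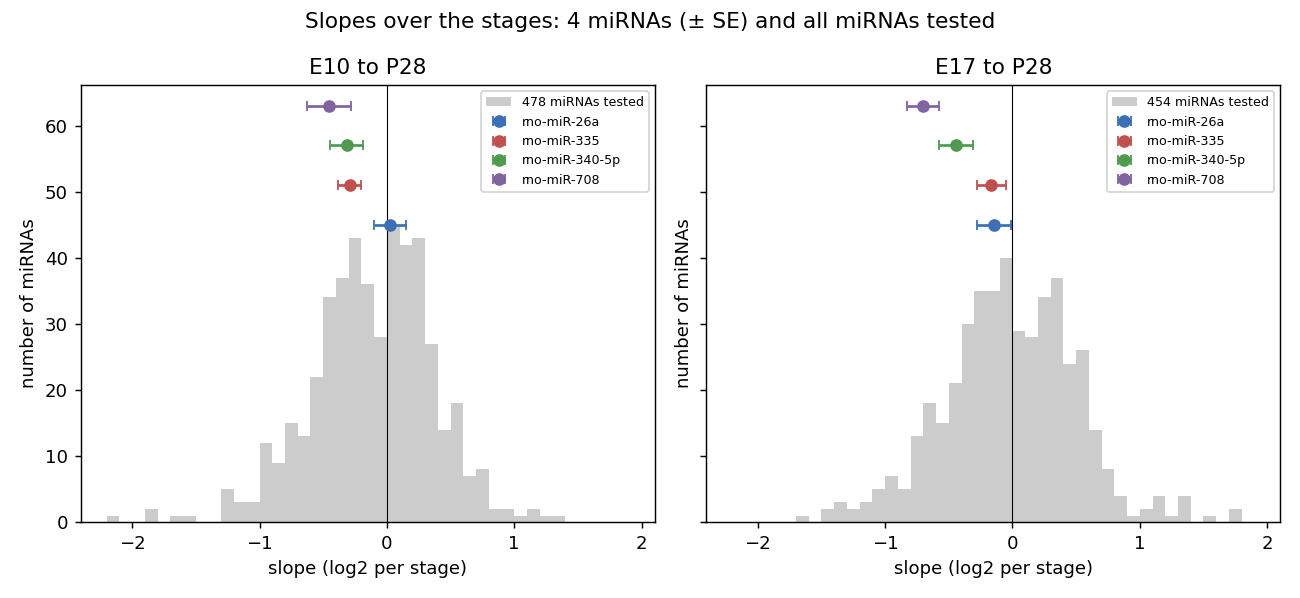
Slopes of the 4 miRNAs with their SE (points, whose heights carry no value) over the histogram of slopes of all miRNAs tested, in log2 per stage, for E10 to P28 (478 miRNAs) and E17 to P28 (454). In this fit miR-708 lies furthest to the left of the 4 in both panels, and miR-26a is within 1 SE of 0 over the whole course.

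The 2 runs of a tissue sample gave different levels of all 4 miRNAs. MiR-340-5p, in run 1 against run 2, had 1392 and 18623 reads at E13, 1227 and 20723 at E17, 1038 and 21242 at P0 replicate 1, 645 and 9777 at P7, 311 and 9348 at P14, and 523 and 9897 at P28. These are the 6 samples whose run 1 stands apart, and their TPM + 1 in run 1 was 7.20 to 11.2-fold lower. In the other 3 samples run 1 was higher on the TPM scale, with 71861 and 45663 reads at E10, 11247 and 12195 at P0 replicate 2, and 13355 and 12497 at P3.

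Of 191 miRNAs with a mean of at least 50 TPM, 1 (miR-181b-5p) was lower by over 3 log2 units in run 1 of all 6 samples. For miR-340-5p the log2 ratio was -3.48 to -2.85. MiR-335 and miR-708 went the other way, with run 1 higher in 9 of 9 tissue samples. Differences between runs were common, since 81 of the 191 miRNAs were higher and 41 lower in run 1 of all 6 samples. The 6 were chosen for alike run differences, which favours such counts.

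Over the 9 tissue samples the mean log2 ratio of run 1 to run 2 was 1.43 ± 0.53 (SD) for miR-335 and 1.73 ± 0.68 for miR-708, each with a two-sided exact sign-flip p = 0.00391, the smallest that 9 samples allow, and 0.00781 after adjustment over the 4 tests. With tags identical to the mature sequence alone, the ratio of miR-708 turned to -0.38 ± 1.40 (exact adjusted p = 0.562). With all tags the ratio was -1.91 ± 1.94 for miR-340-5p and -0.38 ± 0.43 for miR-26a, each with a two-sided exact sign-flip p = 0.0312, adjusted 0.0312. The call for miR-340-5p was lost without any 1 of E13, E17, P0 replicate 1, P7, P14 or P28 (exact adjusted p = 0.0625 each). That for miR-26a was lost without any 1 of E10, E17, either sample of P0, P3, P14 or P28 (exact adjusted p = 0.0521 to 0.0625). The sign-flip test takes the 9 run differences as independent. Those of the 6 samples were alike, as were those of P0 replicate 2 and P3, so these p-values can be too small. What differed between the runs is not given in the sources used here, and its part in the levels was not tested.

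**Figure D3:**
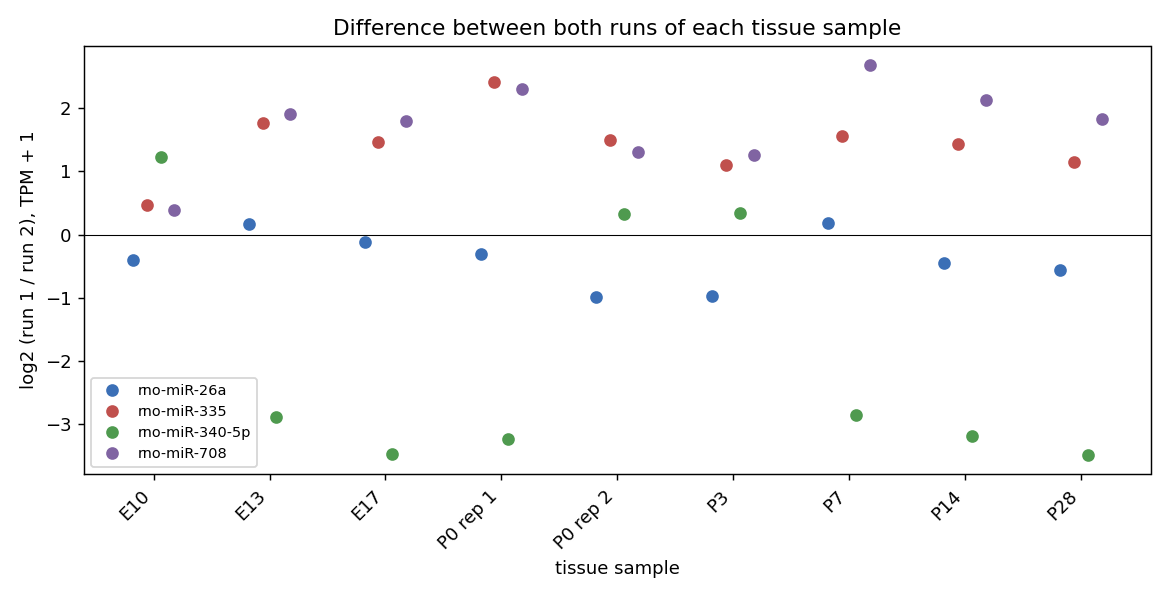
Log2 ratio of the TPM (plus 1) in run 1 to that in run 2, for each miRNA in each of the 9 tissue samples. MiR-340-5p lies between -3.48 and -2.85 in 6 samples and above 0 in E10, P0 replicate 2 and P3, while miR-335 and miR-708 lie above 0 in all 9.

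The 4 miRNAs differed in their 3′ ends. MiR-340-5p was read mostly at its RefSeq end, miR-335 at 2 ends 1 nt apart, and miR-26a and miR-708 most often as tags 3 or more nt shorter than the RefSeq end. The most frequent tags of miR-26a over all libraries show the 2 forms on both sides of its end, with 139000 reads for the 19 nt tag, 83754 for the 18 nt tag, 64202 for the full sequence, and 46340 and 39663 for the 2 tags of 24 nt.
rno-miR-26a, 19 nt: uUCAAGUAauccaggauag
rno-miR-26a, 18 nt: uUCAAGUAauccaggaua
rno-miR-26a, 24 nt ending uu: uUCAAGUAauccaggauaggcuuu
rno-miR-26a, 24 nt ending au: uUCAAGUAauccaggauaggcuau

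Outside run 2 of E10, tags of miR-26a at least 3 nt short made 34.3% to 66.6% of its reads, and in run 2 of E10 0.0694%. Tags 2 nt past the end made 9.89% to 37.1% in the 18 libraries. The hairpin goes on with GU after the mature end, whereas the 2 added bases were UU, AU or AA in most of these tags. Of all reads past the end of miR-26a, 97.7% carried only A and U. Among them 35.2% ended in UU, 30.6% in AU and 13.8% in AA past the end. UU was above AU in 8 of 9 samples in run 2 but in 2 of 9 in run 1.

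MiR-708 was the most shortened. Tags of 20 nt or less made 81.8% to 97.1% of its reads outside run 2 of E10, and 0.701% there, where 71.3% were the full 23 nt sequence. No deposited tag was shorter than 18 nt, and the 18 nt tag was its most frequent with 56341 reads, so shorter forms of miR-708 were not counted.
rno-miR-708, 18 nt: aAGGAGCUuacaaucuag
rno-miR-708, 20 nt: aAGGAGCUuacaaucuagcu

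MiR-340-5p was identical to its mature sequence in 67.9% to 89.6% of reads, the lowest of these in run 1 of P0 replicate 1. Its tags past the end carried an added A in 71.2% and an added U in 17.5% of reads. MiR-335 ended at the sequence printed above or 1 nt later, with a single U in 94.4% of reads past the end. No hairpin of miR-335 was at hand, so the form longer by a U may be encoded in the genome. Tags 1 nt past the end, whatever the added base, made 13.4% to 22.2% of miR-335 reads in run 1 of the 6 samples that stand apart and 38.6% to 44.2% in the 11 libraries of neither kind.
rno-miR-335, 23 nt: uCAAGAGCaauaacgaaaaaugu
rno-miR-335, 5′ end 2 nt later: aAGAGCAAuaacgaaaaaug

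Tags of miR-335 that start 2 nt later carry another seed, AGAGCAA in place of CAAGAGC. They made 0.333% to 5.59% of its reads, below 1% in run 1 of the 6 samples and 1.92% to 5.59% in the 11 libraries. Tags of the other 3 whose first base lay before or after the mature start, which also moves the seed, made 0.506% to 12.4% of reads for miR-26a, 0.396% to 6.58% for miR-340-5p and 0.553% to 2.30% for miR-708. Tags of miR-26a with 1 base before the mature start made up to 8.76%, and its 2 highest shifted shares were in run 1 of P3 and of P0 replicate 2. That base was C in 97.6% of these 7367 reads and G, the base of the hairpin, in 0.136%, so nearly all of them did not match an earlier start on the hairpin. For miR-340-5p it was C in 50.7% of 1005 reads and the hairpin base A in 44.7%. It was C in 96.0% of these reads for miR-708 and 79.1% for miR-335, for which no hairpin base was at hand.

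**Figure D4:**
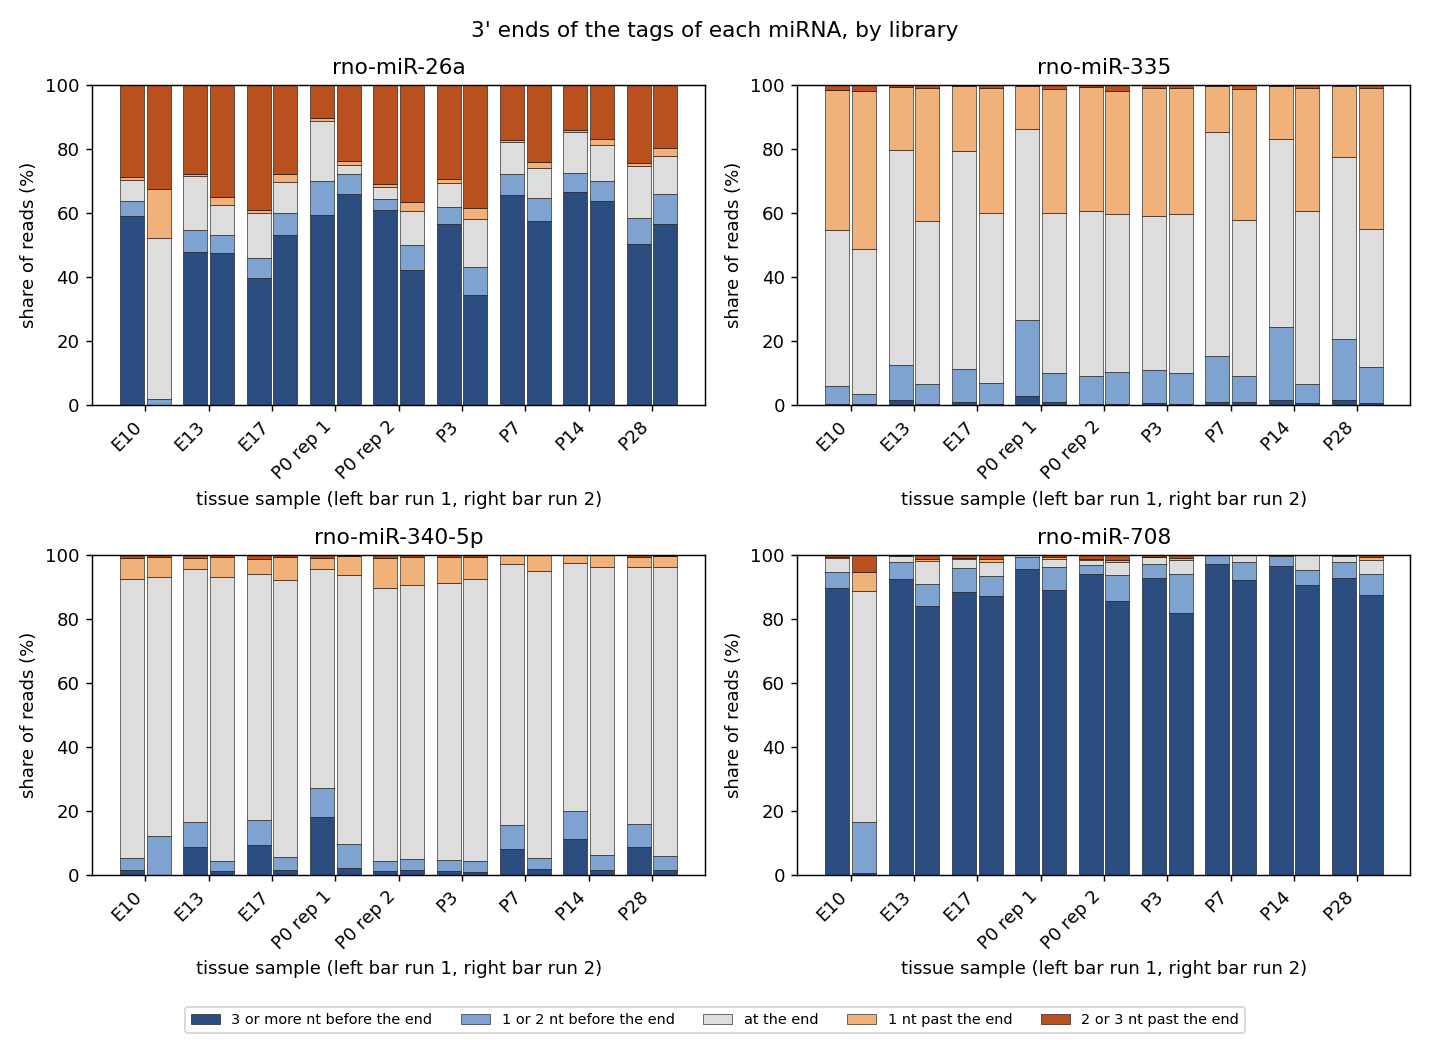
Share of the reads of each miRNA (%) by where the 3′ end of the tag lies, with run 1 as the left and run 2 as the right bar of each tissue sample. MiR-708 is mainly shortened tags except in run 2 of E10, miR-26a has both shortened and lengthened tags, with 43.2% to 72.6% shortened outside run 2 of E10, and miR-340-5p is mainly at its mature end.

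End shares were compared between P7, P14 and P28 and the 6 earlier tissue samples, in 8 exact permutation tests (84 arrangements, smallest two-sided p of 0.0238). None passed after adjustment. The share of miR-340-5p past its 3′ end was 7.27% at E10, 5.58% at E13, 6.89% at E17, 5.34% and 9.76% at P0, and 8.28% at P3, against 3.92% at P7, 3.17% at P14 and 3.68% at P28. The groups did not overlap, and 3.59% ± 0.38 (SD, n = 3) was below 7.19% ± 1.67 (n = 6), with an exact p = 0.0238, adjusted 0.190. How many other miRNAs separate in this way was not counted, so it cannot be called a trait of miR-340-5p. The late shares without the 7 libraries were 3.71% to 4.88% and the early ones 6.14% to 9.76%.

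For miR-26a the share past the end was 20.8% ± 3.64 (n = 3) late and 32.8% ± 7.44 (n = 6) early (exact p = 0.0714, adjusted 0.190). P0 replicate 1, at 18.1%, lay within the late range. For miR-708 it was 0.304% ± 0.527 (n = 3) and 2.15% ± 2.03 (n = 6), with an exact p = 0.0476, adjusted 0.190, where 11.4% in run 2 of E10 stood far above the other 17 libraries (at most 2.36%). Its share was listed at 0 at P7 and P14 because the shares used tags seen in both runs, and the 18 and 8 reads past the end there were in run 2 alone. Counting tags of either run, the late shares were 0.537% at P7, 0.239% at P14 and 1.09% at P28, with 0.623% ± 0.433 (n = 3) late and 2.46% ± 2.14 (n = 6) early (exact p = 0.0476, adjusted 0.190). For miR-340-5p, whose tags 2 nt past the end at P7 and P14 were likewise in run 2 alone, they were 3.96% ± 0.44 (n = 3) late and 7.36% ± 1.59 (n = 6) early (exact p = 0.0238, adjusted 0.190). The 5 other tests had exact p of 0.119 to 0.952.

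Of the opposite arms, that of miR-708 was the best recovered. MiR-708-3p had 23762 reads in all, 6.03% to 25.3% of the reads of both arms in a library. MiR-26a-3p had 129 and miR-340-3p 171 reads in all, with medians of 0.0309% and 0.0750% of both arms. MiR-708-3p fell as miR-708 did, by 0.36 per stage over the whole course (SE 0.14, edgeR adjusted p = 0.0449) and by 0.58 within cortex (SE 0.12, edgeR adjusted p = 0.00245). With the 7 libraries left out its slopes were -0.46 (edgeR adjusted p = 0.0354) and -0.79 (0.00137). Both arms come from 1 hairpin.

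MiR-26b-5p, which shares the seed of miR-26a and is known from an intron of the related gene Ctdsp1, had its highest level at E10. It stood at 1836 TPM at E10, 997 at E13, 559 at E17, 307 and 250 at P0, 257 at P3, 272 at P7, 298 at P14 and 509 at P28. The 7 libraries left out, it stood at 1958, 1058, 709, 234 and 250, 257, 272, 369 and 647 TPM in the same order. Its slopes were -0.17 (SE 0.09, edgeR adjusted p = 0.126) and -0.08 (SE 0.11, 0.585), or -0.17 and -0.11 without the 7 libraries (edgeR adjusted p = 0.111 and 0.418), and their difference from those of miR-26a was not tested. MiR-26a was 1.38 times miR-26b-5p at E10, 2.0 at E13, 3.68 at E17 and 4.52 to 5.31 times from P3 on, with 15.4 and 4.69 in the samples of P0. In the mean of the runs the 3 embryonic ratios lay below all later ones. In run 1 that of E17 (4.80) lay above those of P0 replicate 2 (4.24) and P3 (4.12).

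MiR-28-5p, which shares the seed of miR-708, was far lower at 12.7 to 53.4 TPM. The ratio of miR-708 to it was 17.3 to 119 over the tissue samples. The 7 libraries left out, it was 8.80 to 71.3.

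**Figure D5:**
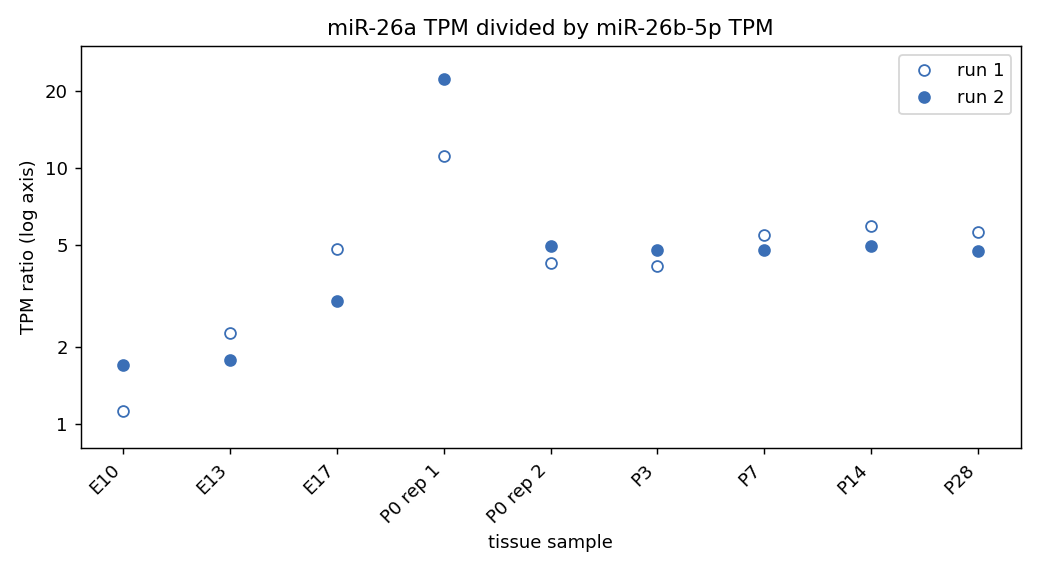
Ratio of miR-26a to miR-26b-5p TPM (log axis) in each tissue sample, with run 1 as open and run 2 as filled circles. It lies between 1.12 and 4.80 at the 3 embryonic stages and between 4.12 and 22.3 from P0 on.

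The likeness of the 4 courses depended on the libraries used. Across the 9 tissue samples, which share runs and depth, the pairwise Pearson correlation of log2(TPM + 1) was 0.13 to 0.61. That of miR-340-5p with miR-708 was 0.53 in the mean of the runs, 0.07 in run 1, 0.95 in run 2 and 0.88 without the 7 libraries. That of miR-335 with miR-340-5p was 0.61, 0.32, 0.69 and 0.79, and that of miR-335 with miR-708 was 0.52, 0.51, 0.55 and 0.59, in the same order. Pairs with miR-26a lay between -0.15 and 0.17 without the 7 libraries. Among 191 miRNAs with a mean of at least 50 TPM, those most like miR-26a were miR-384-5p (r = 0.92), miR-384-3p (0.91) and miR-16-5p (0.80), with 0.96, 0.53 and 0.21 without the 7 libraries.

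For miR-335 they were miR-26b-5p (r = 0.95), miR-92b-3p (0.95) and miR-1298 (0.92), for miR-340-5p miR-181d-5p (0.98), miR-301b-3p (0.96) and miR-532-5p (0.94), and for miR-708 miR-708-3p (0.96), miR-17-5p (0.94) and miR-16-5p (0.92). Without the 7 libraries these were 0.87, 0.92 and 0.70 for miR-335, 0.82, 0.92 and 0.82 for miR-340-5p, and 0.95, 0.94 and 0.96 for miR-708. In run 2 alone the ranks of the 3 were 1, 2 and 26 for miR-26a, 2, 1 and 17 for miR-335, 16, 25 and 44 for miR-340-5p, and 10, 6 and 8 for miR-708.

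Other miRNAs known from introns of coding genes moved in both directions. Of 37 names listed, 35 were tested in the whole course as 60 mature sequences, of which 9 rose and 15 fell, or 40.0% against 45.2% of all miRNAs, with a median slope of -0.09 (all miRNAs -0.09). Within cortex 59 sequences of 34 names were tested, and 11 rose and 13 fell, or 40.7% against 43.6%, with a median of -0.12 (all -0.03). The intronic cluster of the replication gene Mcm7 fell within cortex, with slopes of -0.95 for miR-93-5p (edgeR adjusted p = 0.000308), -0.91 for miR-106b-5p (0.000531) and -0.85 for miR-25-3p (0.00126). MiR-139-5p, from an intron of Pde2a, rose by 0.50 per stage (edgeR adjusted p = 0.00314), and miR-338-3p, from an intron of Aatk and known from oligodendrocytes, by 0.44 (0.0301). With the 7 libraries left out, 10 rose and 14 fell of 59 in the whole course (40.7% against 45.3% of all) and 7 rose and 15 fell of 59 within cortex (37.3% against 45.5%). Of the 5 slopes named, that of miR-338-3p then did not pass (0.39, edgeR adjusted p = 0.0757).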

How the data were processed

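The deposited files hold, for each library, every unique clean tag with its length and its read count. Per the study's methods the authors ligated adapters to size-selected RNA, sequenced it with the Solexa technique, removed adaptors and low-quality reads and collapsed identical reads. The deposited counts are not normalized. The authors mapped tags to rn4, and no mapping is in the values used here.

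Reads of a tag of 18 nt or more went to a miRNA if all bases that both cover were the same, the 5′ ends lay within 3 nt of each other, and the tag reached no more than 3 nt beyond the 3′ end of the miRNA. Of 35293 tags counted, 364 fitted several miRNAs and were counted for each. For miR-26a the RefSeq end replaced that of its most frequent tag (19 nt) after the tags were seen. Matching was tested on 5954 simulated tags, all recovered, and 0 of 693 random tags matched. Reads with sequence changes were not counted, and ligation favours some ends over others.

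TPM used the total clean reads of a library. Slopes were fitted with edgeR 4.0.16 (TMM, quasi-likelihood) in R 4.3.3 on counts summed over runs, for miRNAs that reached 10 counts in 2 or more tissue samples, at a Benjamini-Hochberg adjusted p under 0.05. The SE was derived from the slope and the test statistic. In 3 simulated sets, slopes of 0.6 were recovered in 92.8% of 599 cases over the whole course (477 miRNAs) and in 89.2% of 595 within cortex (446 miRNAs). The simulated counts had 1 common dispersion and no difference between runs. Except for miR-708 within cortex, the fitted slopes of the members were smaller in size, and recovery of such slopes was not simulated. DESeq2 1.42.0 was an alternative. Other steps used Python 3.11.15, scipy 1.17.1, numpy 2.4.6, pandas 2.3.3 and matplotlib 3.10.9, and edgeR loaded limma 3.58.1. Differences between run 1 and run 2 correlated at r of at least 0.12 in every pair of tissue samples, and run numbers were taken to pair the libraries. With r of 0.12 to 0.38 for E10, this does not show that run 1 was the same in every sample. The 2 runs of a tissue are not independent, and the fit with the run as a replicate block counts both.

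The 4 members, the list of other intronic miRNAs and the tests were chosen with earlier results of these data known. Named miRNAs are the members, the 3 most correlated with each, their opposite arms and miRNAs of the same seed, and miR-9a-5p, miR-122-5p, miR-181b-5p and those named from the intronic list were chosen after their values were seen. Leaving out the 7 libraries that stand apart was added after seeing the data.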

Additional observations from a re-analysis of the deposited data

Results flagged for a closer look

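Over the 4 libraries of P0, the level of miR-708 in run 1 of replicate 1 (2813 TPM) stood far from the other 3 (291 to 720 TPM). The gap to the nearest was 0.830 of the whole range, just above Dixon's critical value for 4 independent samples. The 4 libraries are 2 runs of each of 2 tissue samples and so are not independent, and run 1 was higher for miR-708 in 9 of 9 tissue samples, so the value is a description. Run 1 of P0 replicate 1 is among the 7 libraries that stand apart, and its part in this value was not tested.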

How the results depend on the processing

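Slopes of miR-335, miR-340-5p and miR-708 were below 0 in every alternative run in both ranges, whether or not they passed. On leaving out 1 tissue sample at a time, slopes over the whole course ranged from -0.057 to 0.072 for miR-26a, -0.35 to -0.22 for miR-335, -0.36 to -0.21 for miR-340-5p and -0.58 to -0.32 for miR-708, and within cortex from -0.34 to -0.07, -0.32 to -0.09, -0.54 to -0.41 and -0.92 to -0.63. Counts of calls ranged from 146 to 229 and from 129 (without P14) to 201. Over the whole course the slope of miR-26a turned to -0.077 (total of tested miRNAs as library size), -0.043 (clean reads), -0.0045 (identical tags) and -0.0020 (run 1 alone). MiR-335 (-0.27) and miR-708 (-0.37) lost their calls in run 1 alone, and miR-708 also with the paper's sequences (-0.36). MiR-340-5p passed at -0.45 and -0.42 without TMM, -0.28 with DESeq2, -0.33 with tags of both runs, -0.31 as 2 groups, -0.35 without the 7 libraries and -0.47 with the replicate block, which changed no other call of the 4. Within cortex miR-340-5p did not pass with clean reads as library size (-0.32), in run 1 alone (-1.07) or with the paper's sequences (-0.38). Calls numbered 119 and 74 in run 1 alone, and 76 and 46 with the fewer sequences of the paper. With identical tags the mean log2 run ratios were -0.48 for miR-26a, -2.03 for miR-340-5p and -0.38 (reversed) for miR-708. Without 1 sample they ranged from -0.45 to -0.31 (miR-26a), 1.30 to 1.55 (miR-335), -2.30 to -1.72 (miR-340-5p) and 1.61 to 1.90 (miR-708). Late minus early shares past the 3′ end ranged from -15.0 to -10.0 percentage points (miR-26a), -7.93 to -3.62 (miR-335), -3.97 to -3.08 (miR-340-5p) and -2.15 to -1.03 (miR-708), and shifted 5′ shares from -3.56 to -1.95, -1.23 to -0.72, -0.36 to 0.39 and 0.0061 to 0.24. The 5′ share of miR-340-5p turned to 0.24 (run 1) and 0.056 (tags of either run), and the 3′ share of miR-335 to 0.89 without the 7 libraries. Of 36 levels, 18 in run 1 or run 2 alone, 17 with identical tags, 16 without the 7 libraries, 12 per miRNA read and 0 with tags of either run moved by more than the SD at P0. Leaving out a late sample leaves 2 against 6, where the exact test cannot pass. Except as stated by construction, causes were not tested. Read depth limits the shares of miR-340-5p in run 1 of P14 (311 reads).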
